A study of Mus musculus with 28 samples.

Results

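The inhibitory receptors of B cells and myeloid cells were examined during the conversion of C10 cells, a mouse Pre-B line, into macrophage-like cells. The members were 9 genes taken by symbol from a table of 55450 genes, and each was read in all 12 RNA-seq libraries. The B-cell class held 3 receptor genes (Cd22, Cd72 and Siglecg), the myeloid class held 5 (Cd33, Siglece, Pirb, Lilrb4a and Sirpa), and Ptpn6, which encodes the phosphatase SHP-1, was kept apart. C10 cells derive from the HAFTL line and carry a CEBPalpha-ER transgene, a fusion of the myeloid transcription factor C/EBPα with the estrogen receptor, which all groups share. Uninduced cells (0h) were compared with cells given 100 nM β-estradiol, 10 nM IL-3 and CSF-1 for 1h, 12h or 48h, with 3 biological replicates per time point. All libraries come from this 1 cell line, and every time point after 0h received the estradiol and the cytokines together, so their effects cannot be told apart. Promoter Capture Hi-C, which lists the restriction fragments in contact with annotated promoters, was available as 1 list per time point, each merged from 2 replicates.

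Inhibitory receptors of this kind typically carry immunoreceptor tyrosine-based inhibitory motifs in their cytoplasmic tails, though whether each mouse member does was not examined here. When the receptor is engaged, a Src-family kinase such as LYN phosphorylates the motif, SHP-1 or a related phosphatase docks on it, and signalling from activating receptors nearby is reduced. CD22 and Siglec-G bind sialic acids and restrain the B-cell receptor, and CD72 is a C-type lectin of B cells. PIR-B and LILRB4 belong to the leukocyte immunoglobulin-like receptors of myeloid cells, though PIR-B is known from B cells too and was placed in the myeloid class here. SIRPα on macrophages binds CD47, the "don't eat me" signal of other cells.

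The labelled cell types were checked against their markers. The summed transcript levels (TPM, a length-normalised share of each library's reads) of 9 Pre-B markers lay between 299.7 and 338.6 at 0h and between 29.9 and 41.9 at 48h. The sum of 9 macrophage markers lay between 3.97 and 5.44 at 0h, when Adgre1 and Cd14 were listed at 0 in every library, and between 237 and 316 at 48h, when Cd14 was at 36.18 to 61.60 TPM but Adgre1 was still at 0, 0 and 0.29 and Mrc1 at 0.42 to 0.81 (0.31 to 0.57 at 0h). The summed markers of T cells reached at most 0.18 TPM, those of NK cells 0.11, those of granulocytes 2.93 and those of mature B and plasma cells 11.3, and the 3 erythroid markers were listed at 0 in every library. TPM keep no record of depth, and the TPM left outside the 20 most abundant genes varied between 58342.5 and 131783 per library. Over all 16415 genes tested, the median log2 fold change against 0h was 0.59 in the 1h libraries, 0.34 in those of 12h and -0.18 in those of 48h, and that of 48h against 12h was -0.62. Median-of-ratios scaling brought these medians to between -0.01 and 0.07, and its values are given where they change a call of a member, or of a gene of the 4 pathway lists at 48h against 0h. In these bulk libraries, fewer cells of a type and less RNA per cell cannot be told apart.

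The RefSeq promoters of the members (GRCm38.p6, 250 bases before to 50 after the gene start) were searched for the letters that 3 factors of the B-cell and myeloid lineages prefer. An entry was matched for 7 of the 9 members, with no entry for Lilrb4a and Sirpa. The upstream bases that lie outside the GENCODE exons of the gene are shown for the 4 tested members with a match there, since they set the letters beside genes that fell (Cd22 and Cd72) and genes that rose (Siglecg and Pirb). For Cd33 the match lies in an exon of another of its transcripts, and the 30 bases around it are shown. The capitals mark GAGGAAG, the letters preferred by PU.1, on either strand (CTTCCTC when read on the other strand), and in Cd22 the letters preferred by EBF1, which are TCCC and GGGA with 2 bases between them. Each sequence runs 5′ to 3′ on the strand of its gene. The RefSeq starts of Cd22 and Cd33 lie inside the spans that GENCODE gives these genes, where the sequence shown for Cd22 is intronic in the longer transcripts, so other starts of theirs are not covered.
Cd22, chr7:30879029-30879176, minus strand: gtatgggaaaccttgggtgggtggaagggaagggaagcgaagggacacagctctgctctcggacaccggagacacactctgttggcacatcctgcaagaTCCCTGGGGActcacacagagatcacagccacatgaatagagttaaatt
Cd72, chr4:43454629-43454876, minus strand: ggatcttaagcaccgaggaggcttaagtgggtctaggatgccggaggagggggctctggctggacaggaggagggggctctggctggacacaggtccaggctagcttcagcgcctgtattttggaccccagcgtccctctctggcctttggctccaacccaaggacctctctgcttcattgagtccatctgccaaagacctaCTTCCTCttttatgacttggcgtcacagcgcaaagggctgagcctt
Siglecg, chr7:43407989-43408203, plus strand: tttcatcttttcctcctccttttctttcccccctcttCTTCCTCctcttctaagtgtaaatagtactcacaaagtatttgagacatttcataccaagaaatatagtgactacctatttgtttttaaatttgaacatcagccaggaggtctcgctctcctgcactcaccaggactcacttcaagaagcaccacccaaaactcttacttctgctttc
Pirb, chr7:3720392-3720632, minus strand: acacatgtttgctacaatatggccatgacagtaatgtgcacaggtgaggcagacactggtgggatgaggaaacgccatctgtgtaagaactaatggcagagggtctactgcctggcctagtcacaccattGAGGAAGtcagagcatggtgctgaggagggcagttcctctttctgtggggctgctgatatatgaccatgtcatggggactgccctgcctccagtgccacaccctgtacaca
Cd33, chr7:43533379-43533408, minus strand: cagtggaatggGAGGAAGccacaaagaaga

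RefSeq gives Siglecg 2 starts, so 8 windows were searched for the 7 members. The PU.1 letters were found in windows of 5 of the 7 (Cd72, Siglecg, Cd33, Siglece and Pirb), though for Siglecg only in the window shown and not in that of its other start, while 13.628% of all 32851 RefSeq promoters of the same 300 bases held them. They began 48 bases before the gene start in Cd72, 213 in Siglecg, 226 in Cd33 and 120 in Pirb, and Siglece had them at 88 and at 37 bases. On the gene's own strand alone they were found in 2 of the 7 (Cd33 and Pirb), against 7.54% of all promoters. The EBF1 letters were found in Cd22 alone, beginning 49 bases before the start, against 0.904% of all promoters. The letters TTGCNNAA, a core preferred by C/EBP factors, were in none of the 7 windows and in 10.797% of all promoters, and the Ptpn6 window held none of the 3. A match describes letters only and is no evidence of binding, and these letters were sought only in this window.

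Among the B-cell receptors, Cd22 and Cd72 fell within 1h and remained lower than at 0h, whereas Siglecg moved the other way and was higher at 12h and 48h. Cd22 (ENSMUSG00000030577, chromosome 7, 30865402 to 30880342 in GRCm38) encodes the sialic acid-binding co-receptor that damps the B-cell receptor. Its TPM were 9.33, 9.14 and 12.27 at 0h and 4.91, 2.78 and 4.02 at 1h. They were 0.68, 1.01 and 0.56 at 12h and 0.81, 0.55 and 1.33 at 48h. Every 1h library lay below every 0h library, every 12h and 48h library lay below every 1h library, and the 12h and 48h libraries overlapped. The change against 0h was -1.39 ± 0.32 in the 1h libraries (log2 fold change ± SE on log2(TPM + 0.1), n = 3 per time point, limma with Benjamini-Hochberg adjusted p = 0.0102), -3.63 ± 0.32 in those of 12h (limma adjusted p = 1.02e-05) and -3.44 ± 0.32 in those of 48h (limma adjusted p = 5.19e-06). Between 12h and 48h it did not pass the test (0.19 ± 0.32, limma adjusted p = 0.696). The antisense gene Gm29439, which reached at most 0.79 TPM, overlaps Cd22.

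Cd72 (ENSMUSG00000028459, chromosome 4, 43446462 to 43454628) encodes a C-type lectin-like co-receptor that recruits SHP-1. Its TPM were 10.21, 15.29 and 12.37 at 0h and 7.02, 5.21 and 4.68 at 1h. They were 1.80, 1.03 and 3.11 at 12h and 3.26, 4.01 and 4.33 at 48h. The 0h libraries were the highest and the 12h libraries the lowest, and the 48h libraries lay above the 12h ones and below the 1h ones without overlap. The order of 1h and 48h turned after median-of-ratios scaling, with 4.51, 3.41 and 3.53 at 1h and 5.20, 5.59 and 5.76 at 48h. Cd72 fell by 1.15 on the log2 scale at 1h (SE 0.33, limma adjusted p = 0.0268), by 2.72 at 12h (SE 0.33, limma adjusted p = 0.000103) and by 1.67 at 48h (SE 0.33, limma adjusted p = 0.0015), and from 12h to 48h it rose by 1.05 (SE 0.33, limma adjusted p = 0.0281). The 1h call was lost without 0h replicate 2 or 3 or 1h replicate 2 or 3, with adjusted p between 0.0731 and 0.0930 and a range over all alternatives of 0.0026 to 0.0930. The late rise was lost without 12h replicate 1 or 2 or 48h replicate 2 or 3 (adjusted p 0.064 to 0.101) and when only the 6 libraries compared were fitted (0.114), with a range over all alternatives of 0.00111 to 0.114. The neighbouring kinase gene Tesk1, at 0.94 to 2.60 TPM in the libraries, overlaps Cd72 on the opposite strand.

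Siglecg (ENSMUSG00000030468, chromosome 7, 43408204 to 43418358) encodes the Siglec that restrains B-1 cells. Its TPM were 2.29, 2.15 and 2.45 at 0h and 2.23, 1.48 and 1.37 at 1h. They were 3.87, 6.21 and 7.52 at 12h and 3.93, 5.19 and 10.39 at 48h. The 0h and 1h libraries overlapped, all 12h and 48h libraries lay above them, and the 48h libraries were the most spread. Siglecg was higher by 1.27 ± 0.35 at 12h (limma adjusted p = 0.0182) and by 1.34 ± 0.35 at 48h (limma adjusted p = 0.00843), while at 1h its change of -0.45 ± 0.35 did not pass the test (limma adjusted p = 0.367). After median-of-ratios scaling the 1h change was -1.07 ± 0.29 (limma adjusted p = 0.0429, range over all alternatives 0.0379 to 0.601). The 12h call was lost without 0h replicate 2, 12h replicate 2 or 12h replicate 3 (adjusted p 0.0562 to 0.0744, range over all alternatives 0.00926 to 0.0744).

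**Figure D1:**
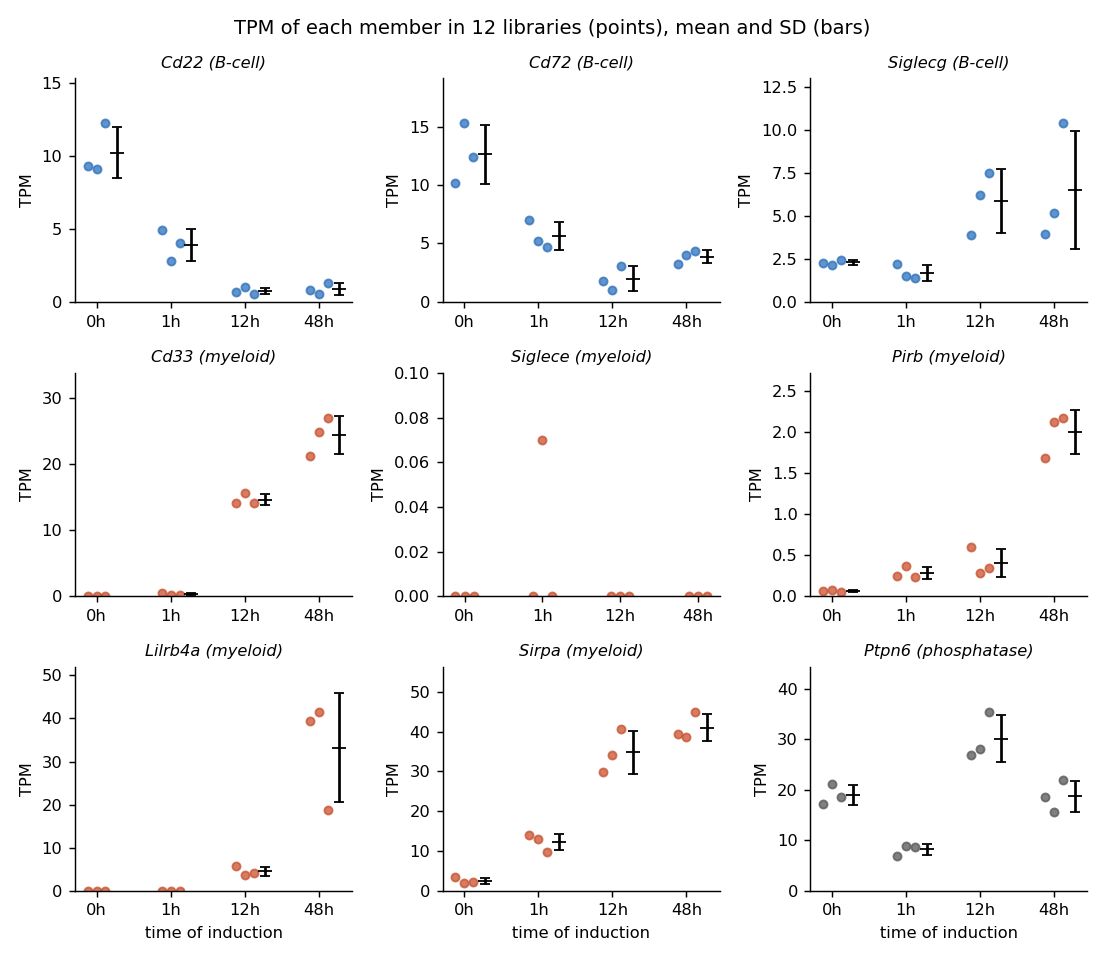
TPM (y axis, linear, own scale per gene) of the 9 members by time of induction, with each of 3 replicates as a point and the mean and SD as bars (no bar where a library is at 0). Cd22 and Cd72 stand highest at 0h, Siglecg and 4 of the 5 myeloid receptors stand higher at 48h than at 0h, and Ptpn6 is lowest at 1h and highest at 12h.

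The myeloid receptors differed in when they rose. Sirpa, the receptor for CD47, was the only one above 1 TPM at 0h and was higher by 1h, Cd33 rose mainly between 1h and 12h, Lilrb4a and Pirb gained most TPM between 12h and 48h, and Siglece was listed at 0 in nearly every library. Sirpa (ENSMUSG00000037902, chromosome 2, 129592835 to 129632228) had TPM of 3.37, 1.94 and 2.31 at 0h and 13.90, 13.01 and 9.87 at 1h. Its TPM were 29.78, 34.03 and 40.60 at 12h and 39.42, 38.64 and 44.93 at 48h. The first 3 time points did not overlap, and the 12h and 48h libraries did. Against 0h, Sirpa rose by 2.25 ± 0.22 within 1h (limma adjusted p = 6.13e-05), by 3.75 ± 0.22 within 12h (limma adjusted p = 3.85e-07) and by 3.99 ± 0.22 within 48h (limma adjusted p = 7.61e-08). From 12h to 48h the change of 0.24 ± 0.22 did not pass the test (limma adjusted p = 0.42), but after scaling it was 0.99 ± 0.16 and did (limma adjusted p = 0.000883, range over all alternatives 0.000883 to 0.706). The near-identical copies Sirpb1a, Sirpb1b and Sirpb1c, of the activating SIRPβ family, reached at most 0.31 TPM.

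Cd33 (ENSMUSG00000004609, chromosome 7, 43524216 to 43544428), a Siglec of myeloid cells, was listed at 0 in all 0h libraries. Its TPM were 0.54, 0.24 and 0.24 at 1h, 14.09, 15.54 and 14.16 at 12h, and 21.24, 24.86 and 27.00 at 48h. No time points overlapped, so each later library lay above every earlier one. The 1h, 12h and 48h levels passed the test against 0h (limma adjusted p = 0.000257, 7.9e-09 and 1.41e-09), and no fold is given because the 0h libraries are at 0. Against 1h, Cd33 rose by 5.13 ± 0.25 at 12h (limma adjusted p = 4.3e-07). Between 12h and 48h it rose by 0.73 ± 0.25 (limma adjusted p = 0.0391), a call that was lost when any 1 of the 6 libraries of 12h and 48h was left out (0.0544 to 0.106), with a pseudocount of 0.01 (0.0983) and with no filter (0.0570), and that after scaling was 1.48 ± 0.22 (limma adjusted p = 0.00055, range over all alternatives 0.00055 to 0.106).

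Lilrb4a (ENSMUSG00000112148, chromosome 10, 51490956 to 51496611) encodes the inhibitory receptor gp49B. It was listed at 0 in all 0h libraries and was at 0.05, 0 and 0 TPM at 1h. Its TPM were 5.67, 3.72 and 4.12 at 12h and 39.48, 41.50 and 18.71 at 48h. All 48h libraries lay above all 12h libraries, and replicate 3 of 48h was the lowest of its group. Lilrb4a passed the test at 12h and 48h against 0h (limma adjusted p = 4.1e-07 and 7.43e-09) and rose by 2.79 ± 0.32 from 12h to 48h (limma adjusted p = 7.6e-05), but not at 1h (limma adjusted p = 0.685). Gm49339, which overlaps Lilrb4a on the same strand, was at 11.78, 10.06 and 16.97 TPM at 48h and was highest in the library where Lilrb4a was lowest, so the split of reads between them is uncertain. The sum of the pair was 6.10 ± 1.33 TPM at 12h (SD, n = 3) and 46.2 ± 9.08 at 48h (SD, n = 3), and rose by 2.90 ± 0.25 between them (limma adjusted p = 1.09e-05).

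Pirb (ENSMUSG00000058818, chromosome 7, 3711409 to 3720391), whose product binds MHC class I, stayed low throughout. Its TPM were 0.07, 0.08 and 0.05 at 0h and 0.25, 0.37 and 0.24 at 1h. They were 0.60, 0.28 and 0.35 at 12h and 1.69, 2.13 and 2.18 at 48h. The 48h libraries lay above all others, the 1h and 12h libraries overlapped, and the 0h libraries were the lowest. Pirb rose by 1.57 ± 0.30 at 12h (limma adjusted p = 0.00248) and 3.65 ± 0.30 at 48h (limma adjusted p = 1.9e-06) against 0h, and by 2.08 ± 0.30 from 12h to 48h (limma adjusted p = 0.000325). Its rise of 1.20 ± 0.30 at 1h (limma adjusted p = 0.0152) was lost without 1h replicate 2 (0.0561), with a pseudocount of 1 (0.108) and under every other scaling, where median-of-ratios gave 0.77 ± 0.29 (limma adjusted p = 0.123, range over all alternatives 0.00757 to 0.742). The 12h call was lost under quantile normalization (0.0622, range over all alternatives 0.00133 to 0.0622). Its activating copies Pira2 and Lilra6, at 0.76 and 1.19 TPM at most, share sequence with it, so these low values are uncertain.

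Siglece (ENSMUSG00000030474, chromosome 7, 43651070 to 43660161), a Siglec of mature myeloid cells that recruits SHP-1 and SHP-2, was at 0.07 TPM in replicate 2 of 1h and listed at 0 in the other 11 libraries. It was below the filter on mean TPM and was not tested, so 8 of the 9 members entered the tests.

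Ptpn6 (ENSMUSG00000004266, chromosome 6, 124720707 to 124738714), the phosphatase that both classes of receptor use, followed neither class. Its TPM were 17.26, 21.19 and 18.55 at 0h and 6.94, 8.89 and 8.73 at 1h. They were 26.91, 28.13 and 35.41 at 12h and 18.54, 15.67 and 21.86 at 48h. The 1h libraries were the lowest and the 12h libraries the highest, with no overlap, and the 0h and 48h libraries overlapped. Ptpn6 fell by 1.21 on the log2 scale at 1h (SE 0.18, limma adjusted p = 0.00102) and rose by 1.87 ± 0.18 from 1h to 12h (limma adjusted p = 4.02e-05). At 48h its difference from 0h was -0.03 ± 0.18 (limma adjusted p = 0.924) as deposited and 0.38 ± 0.18 after scaling (limma adjusted p = 0.111), with neither past the test. The rise of 0.66 ± 0.18 at 12h against 0h (limma adjusted p = 0.0177) was lost after scaling (0.32 ± 0.18, limma adjusted p = 0.209, range over all alternatives 0.0144 to 0.209) and without 0h replicate 1 (0.0563) or 12h replicate 3 (0.0577). The fall of 0.69 from 12h to 48h (SE 0.18, limma adjusted p = 0.0113) was not seen after scaling, which gave 0.06 ± 0.18 (limma adjusted p = 0.882, range over all alternatives 0.00609 to 0.882). The overlapping antisense gene Gm20531 reached at most 0.38 TPM.

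**Figure D2:**
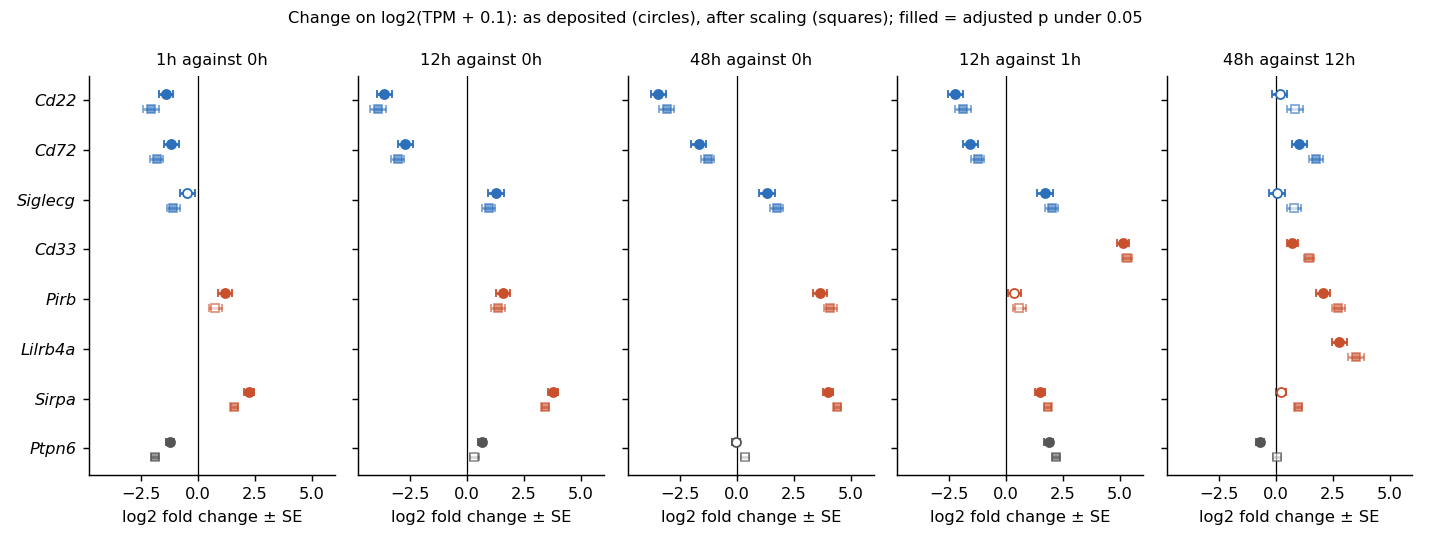
Log2 fold change ± SE (x axis, shared) of the 8 members tested in 5 comparisons, as deposited (circles) and after median-of-ratios scaling (squares), filled where the limma adjusted p is under 0.05, with no point where a library of the earlier time point is at 0. Cd22 and Cd72 lie left of 0 in the 3 comparisons with 0h, Pirb and Sirpa right of 0, and at 48h against 12h the Ptpn6 circle is filled and left of 0 while its square is open at 0.06.

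At 1h against 0h, 3 of the 8 members tested were called higher (Cd33, Pirb and Sirpa) and 3 lower (Cd22, Cd72 and Ptpn6), beside 24.1% of all genes tested higher and 1.41% lower. After scaling, 2 were higher and 4 lower, beside 5.42% and 4.92% of all genes. At 12h against 0h, 6 were higher and 2 lower (Cd22 and Cd72), beside 22.3% and 7.82%, and after scaling 5 and 2, beside 16% and 14.5%. At 48h against 0h, 5 were higher (Siglecg, Cd33, Pirb, Lilrb4a and Sirpa) and 2 lower (Cd22 and Cd72), beside 15.9% and 27.2%, and after scaling the counts were the same, beside 24.5% and 22%. Between 1h and 12h, 5 were higher and 2 lower, beside 6.98% and 15% (11.3% and 8.77% after scaling, with 5 and 2 members). Between 12h and 48h, 4 were higher (Cd72, Cd33, Pirb and Lilrb4a) and 1 lower (Ptpn6), beside 4.1% and 31.7%, and after scaling 5 were higher and 0 lower, beside 10.5% and 11.9%. The comparisons with 0h share their 0h libraries. Cd33, Pirb and Lilrb4a passed the filter on mean TPM only through their 12h and 48h values. For them, being called higher at these time points than before was therefore close to fixed in advance. With 8 genes, these counts describe the members and were not tested against other lists.

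Summed over each class, the B-cell receptors held 25.2 ± 2.90 TPM at 0h and 11.2 ± 2.55 at 1h (SD, n = 3). They held 8.60 ± 2.44 at 12h and 11.3 ± 4.23 at 48h. The 5 myeloid receptors held 2.61 ± 0.74 TPM at 0h and 12.9 ± 2.29 at 1h, and then 54.3 ± 4.59 at 12h and 101 ± 7.23 at 48h. These sums are as deposited, and their course over time depends on scaling. Median-of-ratios scaling divides the libraries by mean factors of 0.93 (0h), 1.47 (1h), 1.18 (12h) and 0.70 (48h). Shares within a library are not changed by it. Of the TPM of the 8 receptors together, the B-cell class made up a median of 92.0% before induction, 49.0% after 1h, 13.3% after 12h and 8.34% after 48h, and no 2 of the first 3 time points overlapped. At 12h and 48h the ranges (11.2% to 15.9% and 7.28% to 14.7%) overlapped, and Siglecg was the most abundant B-cell receptor at both. In the order of mean TPM at 0h, Ptpn6 stood above Cd72 with no overlap, Cd72 and Cd22 overlapped, and Sirpa and Siglecg overlapped below them. At 48h the order was Sirpa, Lilrb4a, Cd33 and Ptpn6, each overlapping the next, and then Siglecg, Cd72, Pirb and Cd22, with Siglecg and Cd72 overlapping.

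**Figure D3:**
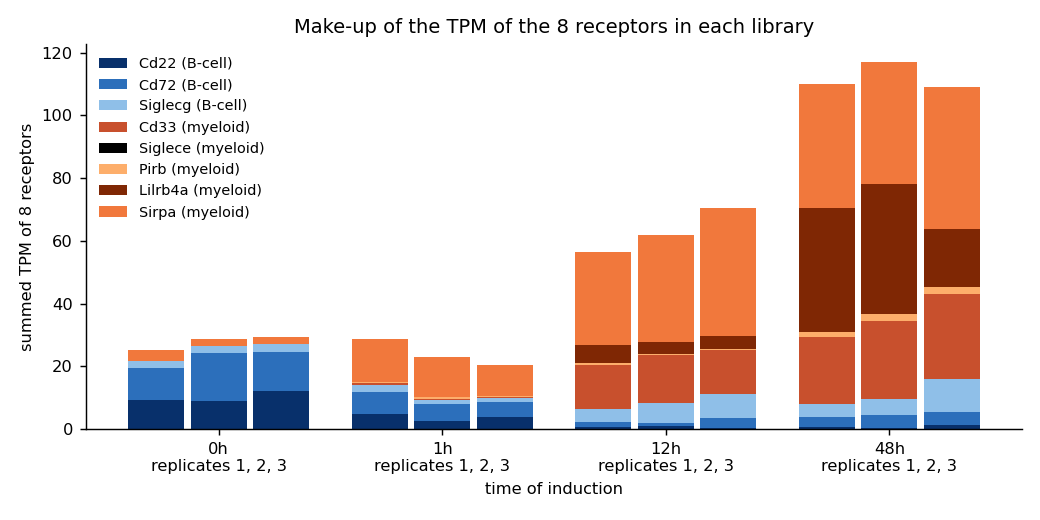
Stacked TPM (y axis, from 0) of the 8 receptors in each of 12 libraries, 3 bars per time point, B-cell receptors in blue and myeloid receptors in orange and brown. The blue share has a median of 92.0% at 0h and 8.34% at 48h, and the 3 bars at 48h reach 109.83, 116.88 and 108.87 TPM.

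Other genes of the pathway were read from 4 lists. Of 19 other inhibitory receptors, 18 were in the table and 13 were tested. The gene without an entry under its symbol was Lilrb4b. At 48h against 0h 7 were higher, 4 lower and 2 not called, beside 15.9% of all genes higher and 27.2% lower. Their median log2 fold change was 1.61 beside -0.18 over all genes. After scaling 8 were higher and 4 lower (24.5% and 22% of all genes), with Pecam1 called at 0.66 ± 0.14 (limma adjusted p = 0.00215). The IgG receptor gene Fcgr2b, an inhibitory receptor of both lineages, rose by 3.72 ± 0.21 (7.48 ± 2.18 to 97.3 ± 7.12 TPM, SD, n = 3, limma adjusted p = 1.2e-07). Clec12a rose from at most 0.07 TPM to between 5.67 and 6.97 (limma adjusted p = 2.84e-07), and Pilra, listed at 0 at 0h, reached 5.99 to 7.19 TPM (limma adjusted p = 2.92e-07). Both passed the filter on mean TPM only through their 12h and 48h values, so their rise was close to fixed in advance. Cd5, which restrains antigen receptor signalling, fell by 2.24 on the log2 scale (SE 0.35, limma adjusted p = 0.000281), and Btla fell by 1.83 (SE 0.36, limma adjusted p = 0.00157) from at most 0.37 TPM. Cd244a went from between 0.48 and 0.88 TPM to a listed 0 (limma adjusted p = 6.78e-05).

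Of 11 effectors and adaptors of inhibitory signalling, all tested, 1 was higher at 48h, 4 were lower and 6 were not called, with a median of -0.14, again beside 15.9% of all genes higher and 27.2% lower. After scaling 2 were higher and 2 lower (24.5% and 22% of all genes), with the adaptor gene Dok3 called at 0.78 ± 0.24 (limma adjusted p = 0.0208). Lyn, the kinase that phosphorylates the inhibitory motifs, rose by 2.21 ± 0.15 (7.15 ± 0.16 to 33.6 ± 4.53 TPM, limma adjusted p = 3.65e-07). Inpp5d, which encodes the lipid phosphatase SHIP-1, fell by 1.98 on the log2 scale (SE 0.32, limma adjusted p = 0.000395) from 28.7 ± 1.56 to 7.56 ± 2.72 TPM. The kinase gene Csk fell by 0.86 (SE 0.24, limma adjusted p = 0.0128) and Inppl1, which encodes SHIP-2, by 0.65 (SE 0.15, limma adjusted p = 0.00405). The calls of Inppl1 and Pag1 were lost after scaling, which gave -0.24 ± 0.12 (limma adjusted p = 0.117) and -0.19 ± 0.18 (limma adjusted p = 0.422). Ptpn11, which encodes SHP-2, the relative of SHP-1, was at 4.43 ± 1.02 TPM at 0h and 4.01 ± 0.94 at 48h (limma adjusted p = 0.724).

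Of 14 activating partners, the adaptors and paired receptors that signal in the opposite sense, 10 were tested. At 48h 9 were higher and 0 lower, beside 15.9% and 27.2% of all genes, with Syk not called and a median of 3.31. In the libraries before 48h, Pilrb1, Pilrb2 and Trem2 were listed at 0, and Pira2 and Lilra6 reached at most 0.08 and 0.35 TPM. These genes passed the filter on mean TPM only through their 48h values, so their rise was close to fixed in advance. Tyrobp, Fcer1g, Hcst and Cd300lb passed it only through their 12h and 48h values, so the same holds for them. The median includes folds from a listed 0, which the pseudocount sets in part. After scaling all 10 were higher, beside 24.5% of all genes, with Syk at 0.57 ± 0.12 (limma adjusted p = 0.00226). Tyrobp, which encodes the adaptor DAP12, was at 0.31, 0 and 0 TPM at 0h and 49.29, 50.43 and 93.29 at 48h (limma adjusted p = 1.03e-07). Fcer1g, the adaptor with which PIR-A receptors pair, was listed at 0 at 0h and reached 11.48 to 13.73 TPM (limma adjusted p = 1.74e-06). Cd300lb went from at most 0.06 to between 5.46 and 7.04 TPM (limma adjusted p = 2.11e-08). Of 11 ligands and enzymes that make them, 10 were tested, and at 48h 7 were higher, 1 lower and 2 not called, beside the same shares of all genes, with a median of 1.90. After scaling 9 were higher and 1 lower (24.5% and 22% of all genes), with the sialyltransferase genes St6gal1 (0.72 ± 0.21, limma adjusted p = 0.014) and St3gal6 (0.75 ± 0.15, limma adjusted p = 0.00192) called too. Cd47, the ligand of SIRPα, rose by 2.95 ± 0.21 (2.79 ± 0.44 to 22.2 ± 2.86 TPM, limma adjusted p = 5.17e-07). The MHC class I genes B2m and H2-D1 rose by 3.25 ± 0.24 and 2.43 ± 0.27 (limma adjusted p = 7.9e-07 and 2.11e-05). Cmah, the enzyme that makes the sialic acid form preferred by mouse CD22, fell by 1.29 on the log2 scale (SE 0.28, limma adjusted p = 0.00249).

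The 9330 other genes whose TPM averaged 1 or more were compared with the members over the 12 libraries, which fall into 4 time points. The genes with profiles most like those of the members were taken by Pearson correlation of log2(TPM + 0.1). For Cd22 they were Pax5, the B-lineage transcription factor (r = 0.972), and Tmem119 (0.963). For Cd72 they were Slamf6 (0.943) and Rab7b (0.932), and for Siglecg Eng (0.970) and Ypel3 (0.961). Cd33 was nearest to Il1rn, the interleukin-1 receptor antagonist (0.997), and Gm44751 (0.995). Lilrb4a was nearest to March1, a ubiquitin ligase (0.995), and Sp100 (0.992), and Sirpa to Synj1 (0.994) and Abca9 (0.993). Ptpn6 was nearest to Nrros (0.939) and Hvcn1 (0.932), which also had their lowest means at 1h.

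Promoter contacts were read as the number of fragments listed for the restriction fragment that holds the promoter. The deposited lists hold 138769 (0h), 137836 (1h), 131598 (12h) and 144072 (48h) pairs, with 1 list per time point and so no replicate check. The 0h list gives an interaction score and the others give whole numbers of another kind, so the lists may not have been filtered alike and only presence is read. Over 17792 promoter fragments the median was 4 contacts in every list, and between 0h and 48h 43.24% had more and 40.25% fewer. Ptpn6 had 21 contacts at 0h and 20 at 1h, and 7 at 12h and 6 at 48h, and 4.406% of promoter fragments lost 12 or more between 0h and 48h. The upper quartile at 0h was 12 contacts, so most fragments had too few to lose 12. The share among fragments that started as high as that of Ptpn6 was not counted. Its fragment also holds the Grcc10 promoter, so these contacts belong to either gene. Within 60 kb on the side of the gene body, 9 of its fragments were listed at 0h and 8 at 1h, and 1 each at 12h and 48h, a window chosen after the contacts were seen.

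In the lists of 0h, 1h, 12h and 48h, Cd33 had 2, 8, 4 and 10 contacts and Siglecg had 7, 3, 11 and 12. A gain of 8 or more between 0h and 48h, as in Cd33, was found for 8.858% of promoter fragments. A gain of 7 or more was found for 10.32%. That of Siglecg was smaller, so at least this share gained as many, and the exact share was not counted. In windows chosen after the contacts were seen, Cd33 had 1, 2, 3 and 6 fragments listed 30 to 60 kb upstream at the 4 time points, and Siglecg had 4, 2, 8 and 10 listed 90 to 140 kb upstream, around the Zfp715 promoter. Siglecg, Cd33 and Siglece are neighbours on chromosome 7, and none of their promoters was listed in contact with another. The Siglecg and Cd33 promoters shared a partner at 12h and 48h that neither had at 0h or 1h, the fragment of the Zfp658 promoter (chromosome 7, 43562028 to 43563625). The Siglece promoter was listed with this fragment too, at 12h only. Siglece, whose RNA was listed at 0 in 11 libraries, had 4, 0, 8 and 3 contacts.

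Cd22, whose RNA fell, had 12 contacts at 0h and 1h and 9 at 12h and 48h, of which 5 were listed both at 0h and at 48h. Cd72, whose fragment also holds Tesk1, had 27, 28, 25 and 25, and 19 of its 27 contacts at 0h were listed again at 48h. Pirb had 0, 1, 3 and 0 contacts and Sirpa 0, 0, 3 and 3. Lilrb4a has no captured fragment in the lists. All listed partners of the members were on the same chromosome, between 7.6 and 783.7 kb away.

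**Figure D4:**
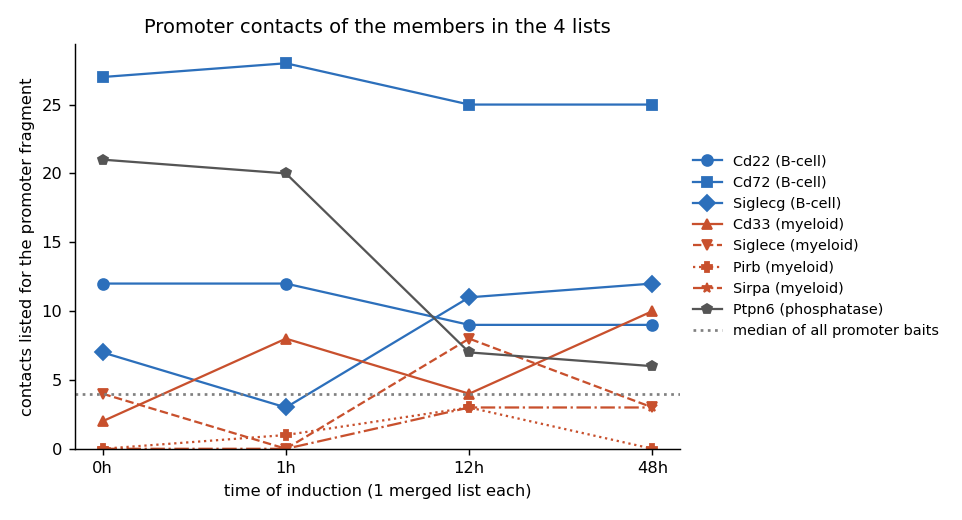
Number of listed contacts (y axis, from 0) of the promoter fragment of 8 members in the 4 lists (x axis), with the median of all promoter fragments (4) as a dotted grey line. Ptpn6 goes from 21 to 6, Cd33 from 2 to 10 and Siglecg from 7 to 12, while Cd72 stays between 25 and 28.

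**Figure D5:**
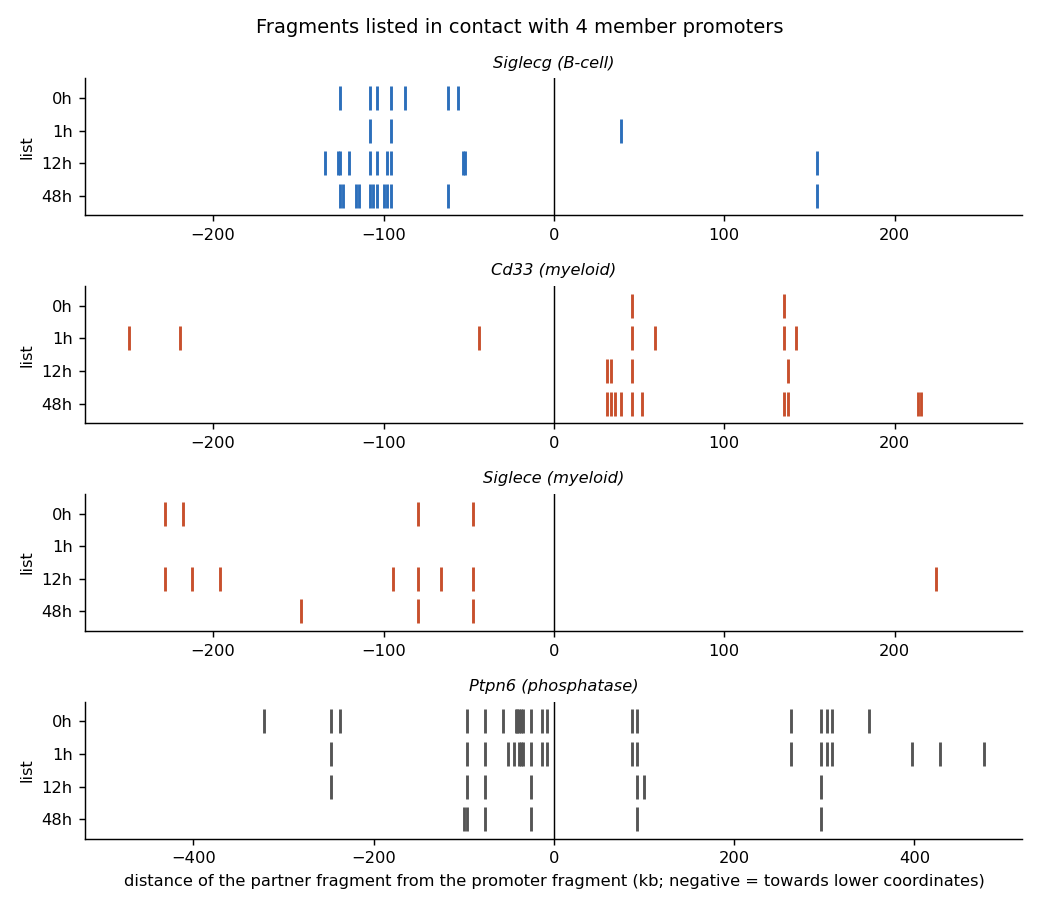
Distance in kb (x axis) of each listed partner fragment from the promoter fragment of Siglecg, Cd33, Siglece and Ptpn6, 1 row of ticks per list. Partners of Siglecg between 95.9 and 134.6 kb to the left number 4 at 0h and 10 at 48h, those of Ptpn6 in the 60 kb to the left number 9 and 1, and the Cd33 partner at 783.7 kb (1h) lies outside the axis.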

How the data were processed

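The analysis used 12 RNA-seq libraries and 4 lists of Promoter Capture Hi-C interactions, and no Hi-C. Per the labels and the methods, the authors trimmed reads with Trim Galore 0.6.2, mapped them to mm10 with HISAT2 2.1.0 and deposited TPM obtained with RSEM (transcripts scaled to a common total per library). Promoter Capture Hi-C interactions were called with CHiCAGO (score cut-off 5) on 2 merged replicates. The 0h list was deposited with a score per pair and the others with whole numbers whose unit is not given in the sources used here, and neither was used beyond presence.

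A linear model (limma 3.58.1, R 4.3.3) was fitted to log2(TPM + 0.1) of the 16415 genes whose TPM averaged 0.1 or more, with the 4 time points in 1 model, a mean-variance trend and Benjamini-Hochberg adjustment over all genes. Fold changes on this scale understate the change of low genes. RSEM divides reads that match several transcripts by an estimate, and its settings for overlapping genes are not given in the sources used here. Tables and contacts used Python 3.11.15, pandas 2.3.3 and numpy 2.4.6, and the model was tested on simulated data, with the pass mark for recovered changes lowered after a result just under it. Named genes were all members, up to 3 risers and 3 fallers at 48h per list, and the 2 nearest profiles of each member averaging 1 TPM or more. The members and lists were chosen with earlier results of these data known. Alternatives varied scaling, pseudocount, filter, trend, libraries, replicate block and replicates. Tyrosine motifs of the proteins were not analysed here.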

Additional observations from a re-analysis of the deposited data

How the results depend on the processing

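The 8 members tested gave 680 values of log2 fold change under alternatives, of which 626 kept their direction and their side of the threshold. With a log2 fold change beyond 2 required, the counts were 0 lower at 1h, 3 higher at 12h and 1 lower at 48h, each against 0h, 2 higher and 1 lower at 12h against 1h, and 2 higher and 0 lower at 48h against 12h. The 1 member lower at 48h against 12h, Ptpn6, was also lost (0) with a log2 fold change beyond 1, under median-of-ratios scaling with or without the replicate block, under quantile normalization and when the TPM outside the 20 most abundant genes were set to a common total. Leaving out 1 library gave 2 to 3 members higher and 2 to 3 lower at 1h, 4 to 6 higher at 12h against 0h, and 2 to 3 higher at 48h against 12h, and the other counts stayed as given.

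The direction turned for 3 members in values that did not pass the test after the change. Ptpn6 at 48h against 0h was 0.38 under median-of-ratios scaling, 0.31 under quantile normalization and 0.31 after that rescaling, and -0.15 to 0.088 when 1 library was left out, and at 48h against 12h it was 0.056 under median-of-ratios scaling. At 48h against 12h, leaving out 1 library gave -0.11 (without 48h replicate 3) to 0.46 for Cd22 and -0.32 (without 48h replicate 3) to 0.37 for Siglecg, which was -0.19 without 12h replicate 1. The replicate numbers were not taken to pair the samples, since not every same-numbered pair had a correlation of deviations over 0.1 (-0.0123 to 0.257, median 0.0726, against a median of -0.0523 for other pairs, with 7 of 12 libraries correlating best with their own number). The libraries numbered 3 did deviate together, with 5 of 6 pairs over 0.1. With the replicate block 3 in place of 4 members were higher at 48h against 12h, because Cd33 (0.73) had an adjusted p of 0.0582 by limma, and the block changed no other call. With both the block and median-of-ratios scaling, Ptpn6 was 0.38 at 48h against 0h and 0.056 against 12h. That setting and the sum of Lilrb4a and Gm49339 were chosen after seeing the data. The PU.1 letters were in 2 promoters when 1 strand was searched. The cause of these changes was not tested. TPM hold no depth, so no counting error can be given for low values such as those of Pirb.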

Other observations

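Siglec1, which encodes the macrophage receptor sialoadhesin and is no inhibitory receptor, was named after its values were seen. It was at most 0.21 TPM in the 0h, 1h and 12h libraries and at 29.64, 35.49 and 49.35 TPM at 48h, and was not among the genes fixed for testing here. Siglecf and Siglech, also relatives of Cd33, reached at most 0.19 and 0.06 TPM.

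Replicate 3 of 48h stood apart in several of the genes described. It was the highest of its group for Siglecg (10.39 TPM against 3.93 and 5.19), Tyrobp (93.29 against 49.29 and 50.43) and H2-D1 (337.05 against 163.34 and 192.01), and the lowest for Lilrb4a (18.71 against 39.48 and 41.50) and B2m (539.52 against 882.26 and 981.28). This was not confined to 48h. Replicate 3 was also the lowest for B2m at 0h, 1h and 12h (70.21, 74.23 and 153.34). At 12h it was the highest for Siglecg (7.52), Tyrobp (18.64) and H2-D1 (106.89). Other values went the other way, as replicate 3 was the lowest for H2-D1 at 0h (40.03) and for Siglecg at 1h (1.37). These genes were chosen after their values were seen.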
